A study of Mus musculus with 16 samples.

Results

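The collagen gene family was taken as the protein-coding mouse genes whose symbol reads Col, a number, a and a number in the GENCODE vM21 annotation, which gave 44 genes of the 47311 with a transcript in the files. All 44 were present in the files, and 31 had enough reads to be tested. Collagens are extracellular proteins of 3 chains wound into a triple helix. The fibrillar collagens form the fibres that carry tension in connective tissue, with collagen I and collagen III as the main ones, and are made mostly by fibroblasts. Collagen IV forms the network of basement membranes under epithelium and around vessels, fat cells and muscle fibres, and the FACIT collagens (fibril-associated collagens with interrupted triple helices) sit on the surface of fibres and link them to their surroundings. In mammary tumours a fibre-rich stroma is a known feature of the tissue around cancer cells.

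RNA was measured in 16 bulk mammary tumours, each from its own mouse by the animal numbers in the labels. All host mice, in both groups, were female C57BL/6J, fed from 8 to 26 weeks of age on a high-fat food, with 60% of calories as fat. The tumours grew from 250000 E0771-luciferase cells, a mammary cancer line of C57BL/6 mice that carries a luciferase reporter, placed in 25% matrigel into the fourth mammary gland. In the 8 anti-PD-1 mice an antibody that blocks PD-1, an inhibitory receptor of T cells, was injected into the peritoneum, 200 ug in 50 ul every 3 days, and the 8 IgG2a mice received an isotype control antibody in the same way. Treatment began 3 days after the cells and ended at day 21. Replicate numbers below are the order of the samples and pair nothing.

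The libraries held 59036535 to 82591064 estimated reads. Collagen genes took 0.459 to 1.33% of the reads of anti-PD-1 tumours (median 0.896%) and 0.758 to 1.91% of those of IgG2a tumours (median 0.929%). One tumour, IgG2a replicate 7, stood apart in several marker lists: 10 adipocyte markers summed to 14030 TPM there (a scale that divides reads by transcript length and library size) and to 69.2 to 349.5 TPM in the other 15. Its sums of 12 fibroblast markers (3965 TPM) and 10 endothelial markers (941 TPM) were also the highest, against 383.5 to 1580 and 89.9 to 181 TPM elsewhere. So were those of leukocyte (944.8 TPM, against 103.5 to 378), epithelial (406.5 TPM, against 36.9 to 115.9) and pericyte markers (177.5 TPM, against 13.6 to 36.9). It is called the fat-rich tumour below. In IgG2a replicate 3, 10 skeletal muscle markers summed to 30340 TPM, against 5.39 to 210.0 TPM in the rest. Anti-PD-1 replicate 6 had reads on 38993 transcripts, against 47997 to 55476 in the others. In bulk tissue, fewer cells of a type and less RNA per cell cannot be told apart.

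Because short annotated fragments inflate the TPM of some collagen genes, levels were compared between genes on the protein-coding transcript with the most reads of each. By its median over 16 tumours the order began with Col6a1 (307.9 TPM) and Col3a1 (303 TPM), followed by Col18a1 (198 TPM), Col4a1 (168 TPM), Col6a2 (148 TPM), Col5a3 (123 TPM) and Col6a3 (109.9 TPM). Col4a2 (77.4 TPM), Col1a1 (68.9 TPM), Col1a2 (48.7 TPM) and Col5a1 (45.9 TPM) came next. Neighbours in this order overlapped in their ranges over tumours, while genes far apart did not always: the lowest Col3a1 value (120 TPM) lay above the highest of Col5a1 (83.4 TPM). Collagen I, usually the most abundant collagen of connective tissue, thus ranked below collagens III, IV and VI by these medians. Summed over all transcripts, the fibrillar class held 44.7 ± 9.80% of the collagen TPM, the beaded filament class 30.5 ± 6.85%, the basement membrane zone class 9.60 ± 2.28%, the basement membrane class 9.19 ± 2.14% and the FACIT class 5.74 ± 2.12% (mean ± SD, n = 16). With the most-read coding transcripts alone the FACIT share was 1.24%. These transcripts carried 12.2% of the TPM of Col16a1 and 29.3% of that of Col12a1. In the 2 largest classes they carried 40.6% of the TPM of Col3a1 and 30.1% of that of Col6a3. The summed shares of the fibrillar and beaded filament classes thus also include short fragments.

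**Figure D1:**
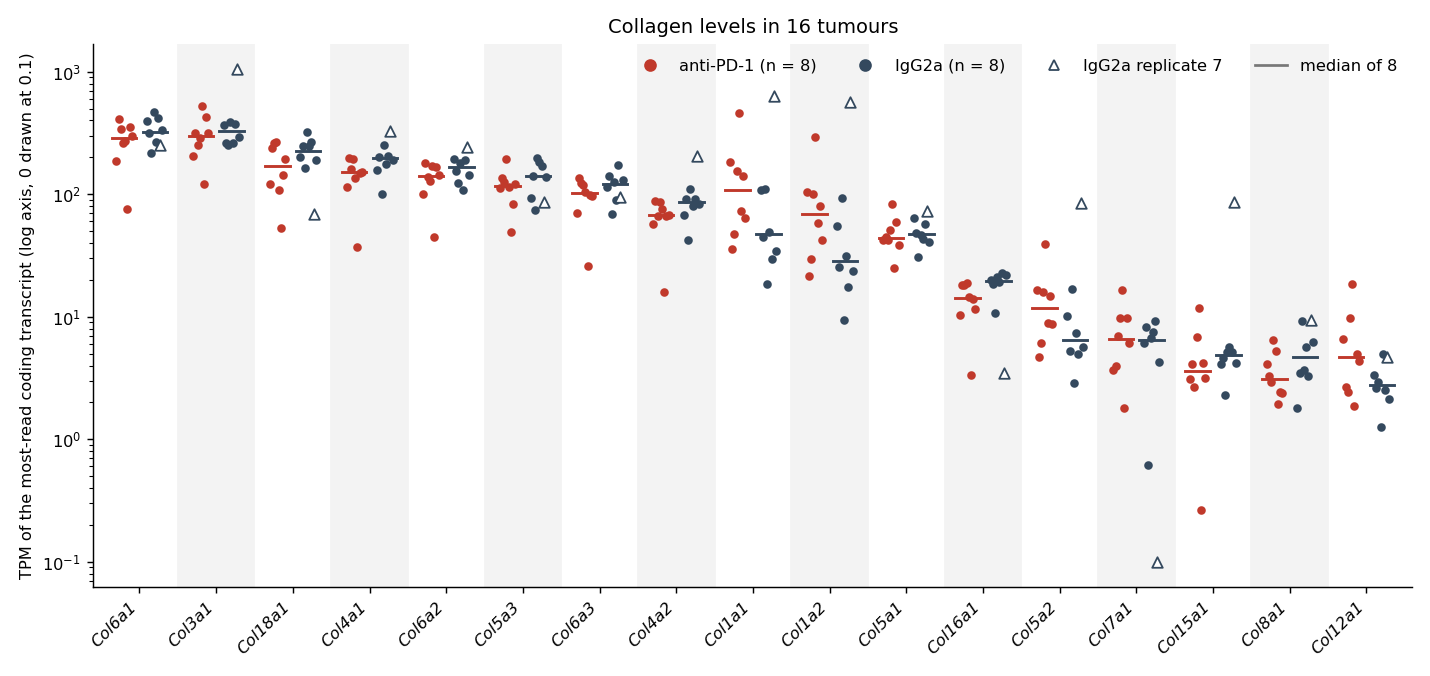
TPM of the most-read coding transcript (log axis) of the 17 collagen genes with the highest median, for each of 8 anti-PD-1 tumours (red, left) and 8 IgG2a tumours (dark blue, right), with lines at the group medians. IgG2a replicate 7 (open triangle) lay at 630.7 TPM for Col1a1, 562.8 TPM for Col1a2 and 87.1 TPM for Col15a1, above all other tumours. It lay at 0 for the plotted transcript of Col7a1, while that gene had 7.13 TPM there over all its transcripts.

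Abundant collagen genes differed in how far they varied from tumour to tumour. CPM here are reads scaled to library size. Of the 15 collagen genes with a mean log2 CPM of 5 or more, 11 had an SD of log2 CPM under 0.6 over the 15 tumours other than IgG2a replicate 7, among them Col16a1 (0.23), Col5a1 (0.32), Col6a2 (0.35), Col3a1 (0.36), Col5a3 (0.41) and Col4a1 (0.45). The other 4 had an SD above 1: Col5a2 (1.05), Col12a1 (1.10), Col1a1 (1.28) and Col1a2 (1.35). All 6192 genes of that abundance had a median SD of 0.24. The chain genes of collagen I kept a narrow ratio, with Col1a2 at 0.504 to 0.892 of the TPM of Col1a1 in all 16 tumours. Col3a1, whose product forms mixed fibres with collagen I, ranged from 1.12 to 21.0 times the TPM of Col1a1.

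**Figure D2:**
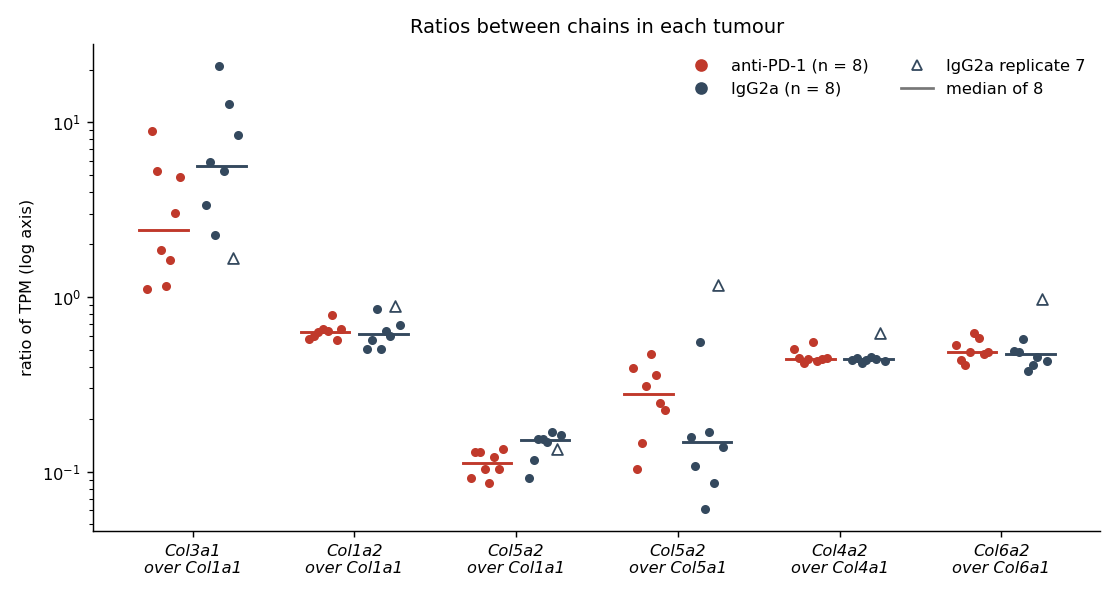
Ratio of the TPM of the most-read coding transcripts (log axis) of 6 pairs of collagen genes in 8 anti-PD-1 tumours (red, left) and 8 IgG2a tumours (dark blue, right), with lines at the group medians and IgG2a replicate 7 as an open triangle. The ratio of Col1a2 over Col1a1 spanned 0.504 to 0.892, while that of Col3a1 over Col1a1 spanned 1.12 to 21.0.

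Collagen V, which starts and limits the width of collagen I fibres, was divided in the same way. Col5a2 kept to 0.0867 to 0.169 of the TPM of Col1a1 (SD of the log2 ratio 0.32 over 15 tumours), but its ratio to its partner chain Col5a1 ran from 0.0610 to 0.549 over the same 15 tumours and was 1.18 in IgG2a replicate 7. In the basement membrane pair, Col4a2 stayed at 0.417 to 0.624 of Col4a1 (SD of the log2 ratio 0.10 over 15 tumours). Col6a2 stayed at 0.379 to 0.973 of Col6a1, with 0.619 as the highest outside IgG2a replicate 7.

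The bases before the starts of Col1a2 and Col3a1 are shown because these fibre partners differed in their spread between tumours. They are RefSeq promoter windows of build GRCm38.p6, cut to the longest run of bases outside annotated exons. For Col1a2 this run stops short of the RefSeq start at chr6:4505618, and the bases nearest that start are not shown. Capitals mark GGGCGG or TATAAA, on either strand. Col1a2 is on the plus strand at chr6:4505370-4505492 and Col3a1 on the plus strand at chr1:45311288-45311537.
Col1a2: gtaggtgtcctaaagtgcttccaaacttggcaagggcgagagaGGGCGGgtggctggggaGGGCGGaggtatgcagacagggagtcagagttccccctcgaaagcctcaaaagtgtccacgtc
Col3a1: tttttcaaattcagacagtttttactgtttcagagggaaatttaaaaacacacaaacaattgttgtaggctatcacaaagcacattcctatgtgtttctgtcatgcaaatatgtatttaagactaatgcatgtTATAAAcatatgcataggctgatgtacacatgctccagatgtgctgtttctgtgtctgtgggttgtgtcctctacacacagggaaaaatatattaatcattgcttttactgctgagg

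The Col1a2 stretch of 123 bases held 2 matches to GGGCGG, at 205 and 188 bases before the RefSeq start. This motif was present in 13.3% of 32851 RefSeq promoters over the same bases. The stretch held no match to TATAAA or CCAAT, but the bases nearest the start were cut off and not searched. The Col1a2 and Col3a1 stretches thus cover unlike distances from the start. The Col3a1 stretch of 250 bases held 1 match to TATAAA, at 117 bases before the start, present in 12.4% of promoters, and none to GGGCGG or CCAAT. GC content was 59.3% in the Col1a2 stretch and 35.2% in the Col3a1 stretch. A match describes the letters and is no evidence of a bound factor.

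The comparison of antibodies asked which collagen genes differ in tumours of obese mice after PD-1 blockade. By edgeR's quasi-likelihood test with Benjamini-Hochberg adjustment over all genes, 0 of the 31 tested collagen genes passed an adjusted p of 0.05 (smallest 0.434), as did 0.0% of all 16154 genes. DESeq2 also called 0 collagen genes, but called 1 higher and 3 lower of all 27933 genes it covered. Limma-voom called 0 collagen genes and 0 of all 16154 genes. At an unadjusted p under 0.05, 3 collagen genes had higher estimates under anti-PD-1 (Col12a1, Col23a1 and Col24a1), against 3.47% of all genes, and 1 had a lower one (Col14a1), against 7.9%. DESeq2 gave 7 higher and 1 lower of 44 at that level, against 765 higher and 994 lower of all 27933 genes it covered. Limma-voom gave 3 higher and 0 lower of 31, against 504 and 507 of 16154 genes. With quality weights limma-voom gave 8 higher and 3 lower of 31, against 1560 and 1861 of 16154 genes. With edgeR, estimates were higher for 12 and lower for 19, where 43.1% of all genes were higher, with a median log2 fold change of -0.15, against -0.05 over all genes. This balance depended on the tool, for all genes as well as for collagens. Limma-voom gave 15 higher and 16 lower (median -0.0018), where 47.5% of all genes were higher. Limma-voom with quality weights gave 17 and 14 (median 0.08), against 51.3% of all genes. DESeq2 over all 44 members gave 23 and 21 (median 0.04), against 46.2% of all genes. DESeq2 ran at its default settings, which can replace outlier counts in groups of 8. The CPM ranges of the anti-PD-1 and IgG2a groups overlapped for all 31 tested members, and over all genes tested they failed to overlap for 0.0124%.

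Leaving out the fat-rich IgG2a replicate 7 turned the balance of the edgeR estimates. Then 19 of 31 estimates were higher and 12 lower, with a median of 0.15, against -0.0031 over all genes, of which 49.5% were higher. Again 0 genes passed the adjusted threshold (0.0% of 16293 genes), with a smallest adjusted p of 0.558. At an unadjusted p under 0.05 there were 6 higher (Col27a1, Col12a1, Col23a1, Col1a1, Col1a2 and Col7a1), against 3.73% of all genes, and 0 lower, against 3.41%. Of the fibrillar genes, 10 of 11 had higher estimates. Anti-PD-1 replicate 5 was the tumour of its group with the most collagen I, and its 12 fibroblast markers summed to 1580 TPM, against 383.5 to 789 TPM in the other anti-PD-1 tumours. Without both this tumour and IgG2a replicate 7, 18 estimates were higher and 13 lower (48.0% of all genes higher), 0 passed (0.0% of 16125 genes), and 2 genes were higher at that level (Col27a1 and Col12a1), against 3.31%, and 0 lower, against 3.06%. With the fat-rich, the muscle-rich and the transcript-poor tumour all left out, 19 of 30 estimates were higher (53.3% of all genes) and 0 passed (0.0% of 16352 genes). At an unadjusted p under 0.05, 7 were then higher, against 6.9%, and 2 lower (Col4a1 and Col6a3), against 8.88%. The higher ones were Col27a1, Col1a2, Col5a2, Col12a1, Col1a1, Col23a1 and Col20a1.

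**Figure D3:**
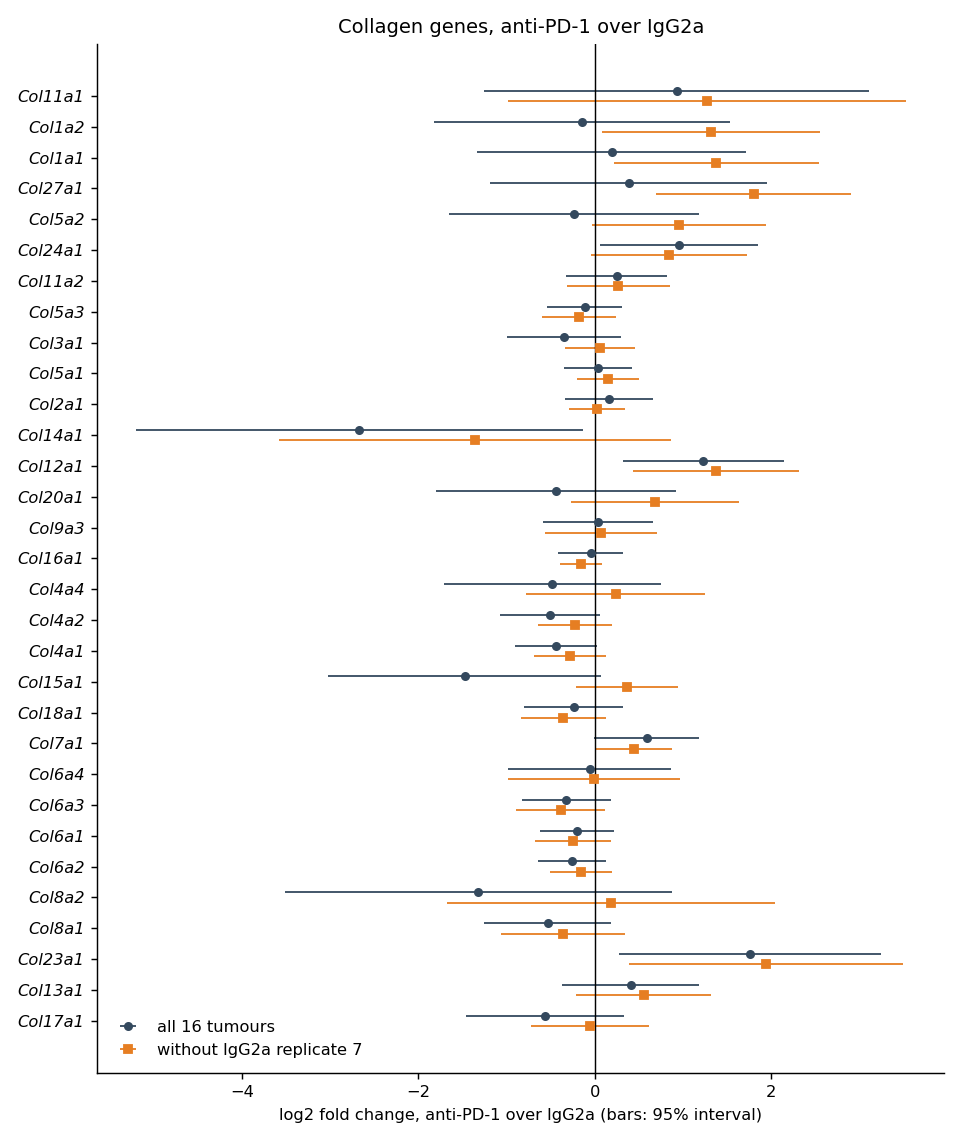
Log2 fold change of anti-PD-1 over IgG2a for 31 collagen genes with 95% intervals, in all 16 tumours (circles) and without IgG2a replicate 7 (squares), ordered by class and spread between tumours. Col12a1 stayed at 1.23 and 1.37, while Col1a1 stood at 0.19 with all tumours and at 1.37 without that tumour, and Col15a1 at -1.48 and 0.36.

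Among the fibrillar genes, Col1a1 encodes the main chain of collagen I. It had 170.7, 659 and 2245 CPM (lowest, median and highest) under anti-PD-1 and 83.0, 231 and 3258 CPM under IgG2a. The highest tumour of all was the fat-rich one, and without it the highest IgG2a value was 667 CPM and 7 of 8 anti-PD-1 tumours lay above the median of the other 7 IgG2a tumours. The log2 fold change was 0.19 ± 0.72 (SE, adjusted p = 0.908) with all tumours and 1.37 ± 0.55 (unadjusted p = 0.0234, adjusted p = 0.558) without IgG2a replicate 7. Without that tumour and anti-PD-1 replicate 5 it was 0.90 ± 0.48.

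Col1a2, the partner chain, had 91.7, 399 and 1292 CPM in anti-PD-1 tumours, against 37.6, 126 and 2625 CPM in IgG2a tumours. Its log2 fold change was -0.15 ± 0.79 (SE, adjusted p = 0.937), and 1.32 ± 0.58 (unadjusted p = 0.0379) without IgG2a replicate 7. Both collagen I estimates were thus higher without that tumour. Col5a2, encoding a chain of collagen V, followed them with 25.2, 83.1 and 219 CPM in anti-PD-1 tumours, against 14.5, 34.9 and 497 CPM in IgG2a tumours. Its log2 fold change was -0.24 ± 0.67 (SE, adjusted p = 0.876), and 0.95 ± 0.46 without IgG2a replicate 7.

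Col3a1, the chain of collagen III, had 1029, 1488 and 2730 CPM in anti-PD-1 tumours, against 1296, 1677 and 5691 CPM in IgG2a tumours. The ranges overlapped, and the log2 fold change of -0.35 ± 0.31 (SE, adjusted p = 0.583) with all tumours was 0.06 ± 0.19 without IgG2a replicate 7. Col5a1 had 281, 341 and 608 CPM in anti-PD-1 tumours, against 267, 326 and 561 CPM in IgG2a tumours, with a log2 fold change of 0.04 ± 0.18 (SE, 95% interval -0.35 to 0.42). Col5a3, the chain of collagen V with a narrower expression in the body, had 426, 627 and 981 CPM in anti-PD-1 tumours, against 460.1, 674 and 957 CPM in IgG2a tumours. Its log2 fold change was -0.11 ± 0.20 (SE, 95% interval -0.54 to 0.31).

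The minor fibrillar genes were low. Col27a1, known from cartilage, had 1.02, 2.48 and 12.8 CPM in anti-PD-1 tumours, against 0.535, 1.04 and 15.9 CPM in IgG2a tumours. Outside IgG2a replicate 7 the highest IgG2a value was 2.10 CPM, and all 8 anti-PD-1 tumours lay above the median of those 7. The log2 fold change was 0.38 ± 0.74 with all tumours and 1.80 ± 0.52 (unadjusted p = 0.00326, adjusted p = 0.558) without replicate 7. Col24a1, known from developing bone and cornea, had 0.885, 1.76 and 5.27 CPM in anti-PD-1 tumours, against 0.429, 1.02 and 2.56 CPM in IgG2a tumours. The log2 fold change of Col24a1 was 0.95 ± 0.43 (unadjusted p = 0.0394, adjusted p = 0.434), and 0.60 ± 0.39 without anti-PD-1 replicate 5. The cartilage genes Col2a1 (4.76 against 4.50 CPM in the group medians, anti-PD-1 against IgG2a), Col11a2 (1.98 against 1.51 CPM) and Col11a1 (0.587 against 0.133 CPM) had log2 fold changes of 0.16, 0.25 and 0.93, none with an unadjusted p under 0.05.

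Of the FACIT genes, Col12a1 had the smallest unadjusted p of the family by edgeR with all tumours, while Col27a1 had a smaller one without IgG2a replicate 7 and with DESeq2. Its product lies along collagen I fibres and is known from tissue under tension and from tumour stroma. It had 29.4, 77.3 and 244.8 CPM in anti-PD-1 tumours, against 11.4, 36.1 and 65.0 CPM in IgG2a tumours. The 4 highest tumours were anti-PD-1 replicates 5, 1, 4 and 6, and the lower part of the anti-PD-1 range lay inside that of IgG2a. The log2 fold change was 1.23 ± 0.43 (SE, unadjusted p = 0.0110, adjusted p = 0.434). Across the alternatives it ran from 0.83 without anti-PD-1 replicate 5 to 1.55 with an offset for transcript length. IgG2a replicate 7 lay 0.27 log2 units above the median of the other tumours for Col12a1, where Col1a1 was 3.37 above.

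Most reads of Col12a1 (72.9%) lay on the long coding transcript of 11511 bases. Per length, the median of a short 1784-base coding transcript from the end of the gene was higher. The long transcript had 1.86, 4.66 and 18.6 TPM in anti-PD-1 tumours, against 1.25, 2.79 and 4.96 TPM in IgG2a tumours. The short one had 3.25, 10.6 and 46.8 TPM in anti-PD-1 tumours, against 0, 5.32 and 10.8 TPM in IgG2a tumours, so both transcripts had the higher median under anti-PD-1. The ratio of short over long was 13.9 in anti-PD-1 replicate 6, the tumour with the fewest transcripts detected, 3.94 in anti-PD-1 replicate 1 and at most 3.65 elsewhere. Col12a1 lies on the minus strand at chr9:79598991-79718831 (GRCm38).

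**Figure D4:**
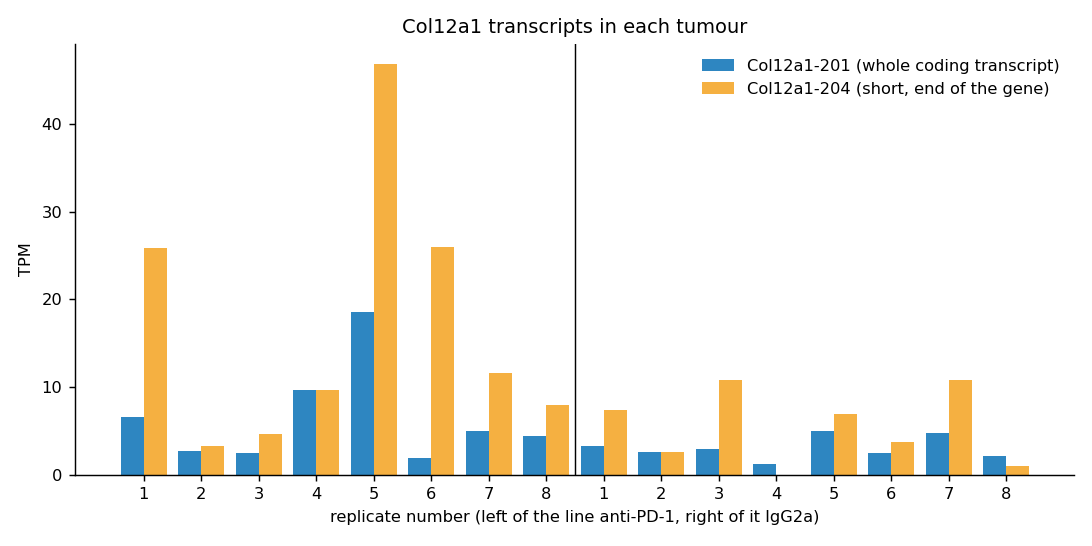
TPM of the long (blue) and short (orange) coding transcript of Col12a1 in 8 anti-PD-1 tumours (left of the line) and 8 IgG2a tumours (right of it). Anti-PD-1 replicate 5 was highest for both, at 18.6 and 46.8 TPM, and IgG2a replicate 4 had 0 TPM of the short transcript.

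Col14a1, a FACIT collagen of skin and tendon, had 0.456, 1.69 and 7.56 CPM in anti-PD-1 tumours, against 0.324, 1.08 and 94.0 CPM in IgG2a tumours. The IgG2a range rested on 2 tumours, the fat-rich replicate 7 (94.0 CPM) and the muscle-rich replicate 3 (45.9 CPM), with 1.97 CPM as the highest of the other 6. Its log2 fold change was -2.67 ± 1.20 (SE, unadjusted p = 0.0400, adjusted p = 0.434) with all tumours, -1.36 ± 1.05 without replicate 7 and 1.36 without both and anti-PD-1 replicate 6. Col16a1, a FACIT collagen found in several tissues, had the smallest SD of the tested members over 15 tumours, with 146.7, 191 and 247 CPM in anti-PD-1 tumours, against 85.2, 196 and 264 CPM in IgG2a tumours and a log2 fold change of -0.05 ± 0.17 (95% interval -0.41 to 0.32). Col9a3, a chain of the cartilage collagen IX, had 0.748, 1.38 and 2.02 CPM in anti-PD-1 tumours, against 0.501, 1.35 and 2.30 CPM in IgG2a tumours. Col20a1, another FACIT gene, had at most 2.27 CPM in any tumour. Col22a1, a collagen of the muscle and tendon junction, was not tested, and reached 1.09 TPM in the muscle-rich IgG2a replicate 3, against at most 0.263 TPM elsewhere.

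In the basement membrane class, both abundant chains had lower estimates under anti-PD-1. Col4a1 had 347, 837 and 1054 CPM in anti-PD-1 tumours, against 685, 1039 and 1904 CPM in IgG2a tumours, and the log2 difference was -0.44 ± 0.22 (SE, unadjusted p = 0.0630, adjusted p = 0.435). Col4a2 had 144.9, 379 and 458 CPM in anti-PD-1 tumours, against 278, 462 and 1159 CPM in IgG2a tumours, with -0.51 ± 0.27 (unadjusted p = 0.0746, adjusted p = 0.435). For Col4a2 all 8 anti-PD-1 tumours lay below the IgG2a median, but 2 of 8 lay above it with IgG2a replicate 7 left out. The lowest tumour for both genes was anti-PD-1 replicate 6 and the highest was IgG2a replicate 7. Without replicate 7 the estimates were -0.28 ± 0.19 for Col4a1 and -0.23 ± 0.20 for Col4a2, and without anti-PD-1 replicate 6 they were -0.32 ± 0.18 and -0.39 ± 0.24. These genes share a start region on chromosome 8, where their exons overlap by 22 bases on opposite strands, and the library kept no strand.

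Markers of vessel cells are given beside these genes. The 10 endothelial markers summed to 89.9, 114 and 181 TPM in anti-PD-1 tumours, against 104.8, 122 and 941 TPM in IgG2a tumours. All 10 tested endothelial genes had lower estimates under anti-PD-1 with all tumours, where 43.1% of all genes were higher. Without IgG2a replicate 7, 7 of 10 had higher ones, against 49.5% of all genes. The part of these markers in the Col4a1 and Col4a2 values was not tested. The tissue-restricted chain Col4a4 had at most 1.64 CPM. Col4a5 and Col4a6 were not tested and reached 3.94 and 1.39 TPM in the fat-rich tumour, against at most 0.419 and 0.122 TPM in the other 15.

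The 3 genes of the basement membrane zone had estimates in both directions, and none passed the test. Col7a1, the anchoring fibril collagen that ties epithelium to stroma, had 59.5, 76.5 and 155 CPM in anti-PD-1 tumours, against 14.2, 61.2 and 79.4 CPM in IgG2a tumours. Its log2 fold change was 0.59 ± 0.28 (SE, unadjusted p = 0.0532, adjusted p = 0.434) and 0.44 ± 0.20 without IgG2a replicate 7, the lowest tumour. Col15a1, found around vessels, fat cells and muscle fibres, had 15.6, 25.3 and 71.6 CPM in anti-PD-1 tumours, against 20.1, 23.7 and 494 CPM in IgG2a tumours. The second highest IgG2a tumour had 25.4 CPM, and the log2 fold change of -1.48 ± 0.73 (adjusted p = 0.435) was 0.36 ± 0.27 without the fat-rich tumour. Col18a1, the source of the fragment endostatin, had 374, 706 and 1196 CPM in anti-PD-1 tumours, against 353, 927 and 1216 CPM in IgG2a tumours, with -0.24 ± 0.27 (adjusted p = 0.664).

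Col18a1 is known to be read from a pair of promoters. The upstream one gives the short isoform of vessels and epithelial basement membranes, and the downstream one gives longer isoforms known from liver and fat. The bases before the upstream start are shown because nearly all Col18a1 reads of 15 tumours lay on its transcript. They come from the RefSeq window of build GRCm38.p6 on the minus strand at chr10:77166549-77166780. Capitals mark CCAAT or GGGCGG on either strand.
Col18a1: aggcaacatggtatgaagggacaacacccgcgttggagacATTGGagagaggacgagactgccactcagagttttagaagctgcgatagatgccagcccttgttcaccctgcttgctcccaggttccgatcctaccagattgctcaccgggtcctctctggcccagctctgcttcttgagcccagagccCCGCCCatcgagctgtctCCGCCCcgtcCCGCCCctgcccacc

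This stretch of 232 bases held 3 matches to GGGCGG, all on the opposite strand and so read here as its reverse complement, present in 30.1% of 32851 promoters over the same bases, and 1 to CCAAT, present in 32.4%. It held none to TATAAA. The 2 transcripts of the downstream start lie at chr10:77053194-77113946 and chr10:77053016-77113705 (GRCm38). They had 3096 estimated reads in the fat-rich IgG2a replicate 7, 14.1% of the 21932 reads of the gene there. In the other 15 tumours they had 0 to 182 reads, at most 0.423% of the gene, and 6 of the 15 had 0. The short transcript had 18815 reads in replicate 7, against 24150 to 82335 reads in the other 15. The tumour that was lowest for Col18a1 as a whole by reads and CPM was thus the highest for its downstream transcripts. By TPM of the gene, anti-PD-1 replicate 6 was lower (53.1 TPM, against 81.2 TPM in IgG2a replicate 7). The downstream result rests on 1 tumour and on the authors' division of reads between transcripts.

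Collagen VI forms beaded filaments around many cell types and is abundant in fat. Col6a1 had 433, 955 and 1341 CPM in anti-PD-1 tumours, against 879, 1022 and 1438 CPM in IgG2a tumours. Col6a2 had 276, 540 and 644 CPM in anti-PD-1 tumours, against 416, 583 and 899 CPM in IgG2a tumours, and Col6a3 had 382, 970 and 1383 CPM in anti-PD-1 tumours, against 780, 1239 and 1781 CPM in IgG2a tumours. The lowest tumour for all 3 genes was anti-PD-1 replicate 6. The log2 fold changes were -0.20 ± 0.20 for Col6a1, -0.26 ± 0.18 for Col6a2 and -0.32 ± 0.24 for Col6a3 (SE), with adjusted p of 0.619, 0.494 and 0.510. Without that tumour they were -0.095 ± 0.16, -0.17 ± 0.16 and -0.20 ± 0.19, in the same order of genes. In the fat-rich tumour Col6a1 and Col6a3 lay 0.19 and 0.39 log2 units below the median of the other 15, and Col6a2 lay 0.71 above it. Col6a4 had at most 0.943 CPM in any tumour.

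Of the short-chain genes, Col8a1, a collagen of vessel walls, had 9.95, 13.6 and 26.8 CPM in anti-PD-1 tumours, against 7.56, 18.9 and 47.5 CPM in IgG2a tumours. Its partner Col8a2 had 0.0570, 0.227 and 1.36 CPM in anti-PD-1 tumours, against 0, 0.219 and 6.25 CPM in IgG2a tumours. Both were highest in IgG2a replicates 3 and 7, the muscle-rich and the fat-rich tumour. The log2 fold changes were -0.53 ± 0.34 for Col8a1 and -1.32 ± 1.04 for Col8a2 (SE), and without IgG2a replicate 7 they were -0.36 ± 0.33 and 0.18 ± 0.88. Without replicate 3 and anti-PD-1 replicate 6 as well they were 0.011 and 1.20. Of the transmembrane genes, Col23a1, a collagen of the cell surface, had 0.313, 2.58 and 13.9 CPM in anti-PD-1 tumours, against 0.162, 0.897 and 2.01 CPM in IgG2a tumours. In 7 of 8 anti-PD-1 tumours it lay above the IgG2a median, and its log2 fold change was 1.76 ± 0.70 (unadjusted p = 0.0230, adjusted p = 0.434), or 1.03 ± 0.61 without anti-PD-1 replicate 5. Col13a1, an adhesion collagen, had medians of 1.25 CPM in anti-PD-1 tumours, against 1.09 CPM in IgG2a tumours, with 0.41 ± 0.37. Col17a1, a collagen of epithelial hemidesmosomes, had medians of 1.30 CPM in anti-PD-1 tumours and 1.29 CPM in IgG2a tumours, with -0.57 ± 0.42, or -0.06 ± 0.31 without IgG2a replicate 7.

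The 13 members that did not pass the filter on low counts were Col4a3, Col4a5, Col4a6, Col6a5, Col6a6, Col9a1, Col9a2, Col10a1, Col19a1, Col22a1, Col25a1, Col26a1 and Col28a1. Outside IgG2a replicates 3 and 7, the highest value of any of them was 0.290 TPM, of Col9a2 in anti-PD-1 replicate 5. Col28a1, known mainly from nerve, had 3.10 TPM in IgG2a replicate 7, against at most 0.229 TPM in the other 15. The 5 Schwann cell markers summed to 23.4 TPM in that tumour, against 1.40 to 11.5 TPM elsewhere, and their part in the Col28a1 value was not tested.

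The fat-rich IgG2a replicate 7 was also set against the other tumours, as a description of 1 tumour. Of the 31 tested genes, 15 lay more than 1 log2 unit above the median of the other 15 tumours, as did 25.0% of all 16154 genes. Another 5 lay more than 1 unit below it, against 16.4% of all genes. The differences were 6.33 for Col14a1, 4.85 for Col8a2, 4.40 for Col15a1, 3.81 for Col1a2, 3.42 for Col27a1, 3.38 for Col5a2 and 3.37 for Col1a1. They were smaller for Col3a1 (1.87), Col4a2 (1.53) and Col4a1 (1.00). Below the median were Col7a1 (-2.29), Col2a1 (-1.73), Col24a1 (-1.51), Col18a1 (-1.25) and Col16a1 (-1.18). The fibrillar class held 70.6% of the collagen TPM in this tumour and the beaded filament class 13.2%, the highest and the lowest share of the 16.

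**Figure D5:**
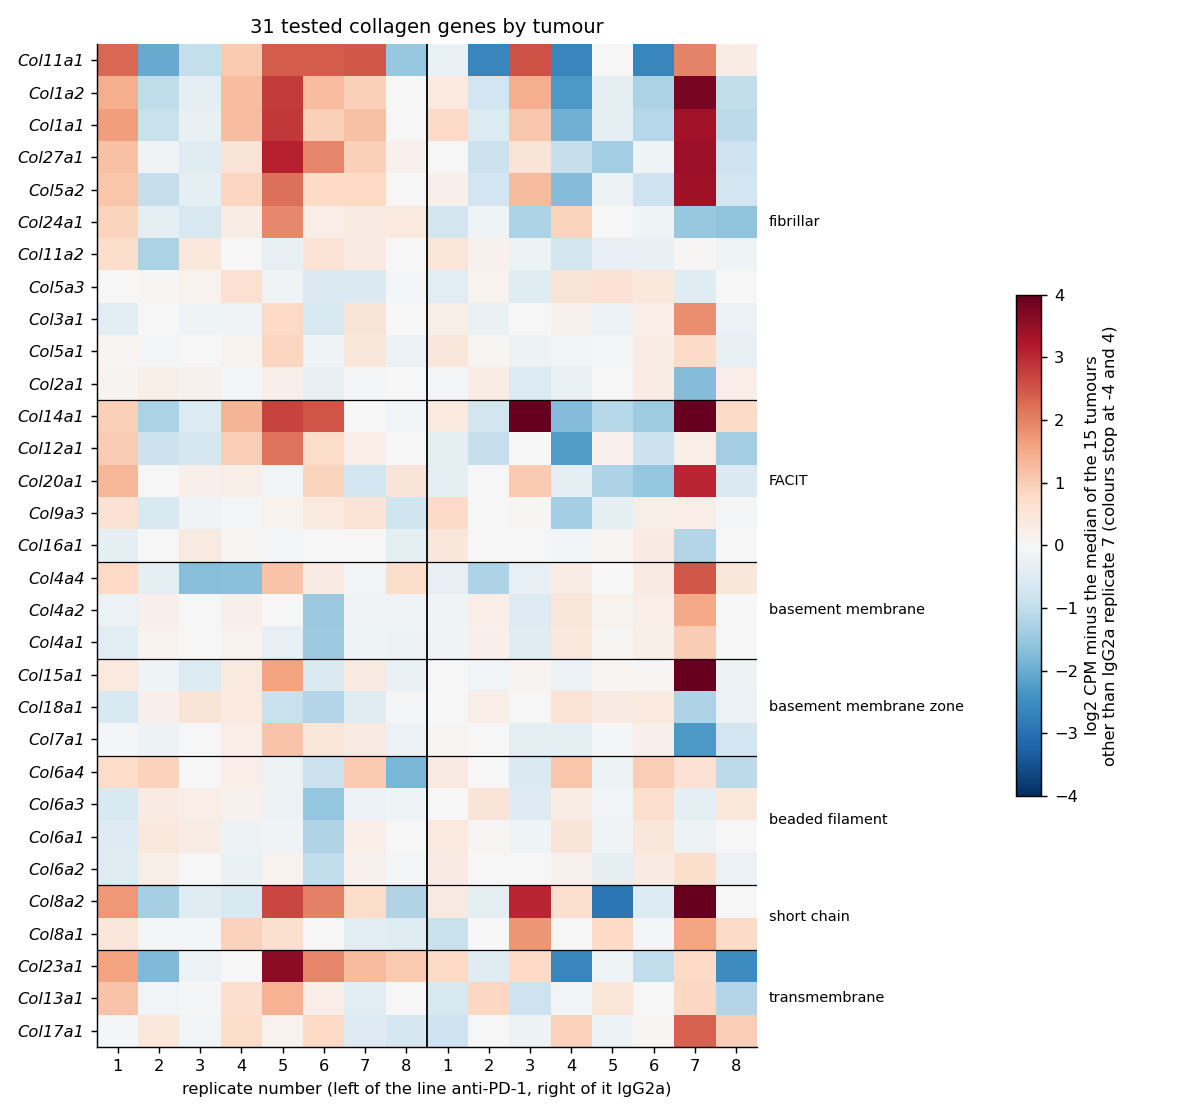
Log2 CPM of 31 collagen genes in each tumour minus the median of the 15 tumours other than IgG2a replicate 7 (red above, blue below), with anti-PD-1 replicates left of the line and IgG2a replicates right of it, in classes ordered by spread. Anti-PD-1 replicate 5 lay 2.83 above for Col1a1 and 2.79 above for Col1a2, and anti-PD-1 replicate 6 lay -1.54 from the median for Col6a3 and -1.21 from it for Col6a1.

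The transcript make-up of the collagen genes was compared over the 12 members with at least 2 transcripts above 10% of their TPM and a mean of at least 100 reads. By exact permutation tests of tumours between groups, the share of the main transcript passed an adjusted p of 0.05 in 0 of 12 (0.0% of 6751 genes), and 0 at an unadjusted p under 0.05, against 12.5% of all genes. The largest differences were in Col15a1, where the 5172-base transcript held 41.2 ± 22.9% of the TPM in anti-PD-1 tumours, against 64.3 ± 27.2% in IgG2a tumours (SD, 8 tumours a group; exact permutation p = 0.0898), and in Col12a1. There the short transcript held 67.9 ± 13.8% in anti-PD-1 tumours, against 50.8 ± 24.9% in IgG2a tumours (exact permutation p = 0.110). In Col6a3 a 646-base fragment with a retained intron held 58.8 ± 11.5% of the TPM in anti-PD-1 tumours, against 46.7 ± 13.3% in IgG2a tumours (exact permutation p = 0.0737). Anti-PD-1 replicate 6, the tumour with the fewest transcripts detected, had the highest ratio of short over long transcripts in each of these genes. The ratio was 19.45 in Col15a1, 13.94 in Col12a1 and 2.906 in Col6a3. Elsewhere it was at most 3.608, 3.941 and 2.664. The part of that tumour in the group means was not tested. The tests were two-sided. In all alternatives 0 members passed the adjusted threshold. At an unadjusted p under 0.05, 1 was higher and 2 lower of 12 without IgG2a replicate 3, against 1155 and 539 of all 6751 genes. Without the fat-rich, the muscle-rich and the transcript-poor tumour 1 was higher and 3 lower, against 1119 and 477 of 6766 genes.

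Genes that act on collagens were read from lists of known members. Of 31 tested genes for collagen synthesis and crosslinking, 0 passed the adjusted threshold and 0 had an unadjusted p under 0.05, with 12 higher and 19 lower estimates and a median of -0.03. Over all genes 43.1% were higher, and 3.47% were higher and 7.9% lower at that level. With the fat-rich, the muscle-rich and the transcript-poor tumour all left out, 4 of 31 were higher and 2 lower at that level, against 6.9% and 8.88%. Serpinh1, the collagen chaperone of the endoplasmic reticulum, had 818, 1065 and 1350 CPM in anti-PD-1 tumours, against 860.1, 1076 and 1355 CPM in IgG2a tumours, with a log2 fold change of -0.03 ± 0.11. Lox, which crosslinks fibres, had 9.46, 21.6 and 57.9 CPM in anti-PD-1 tumours, against 4.17, 9.58 and 348 CPM in IgG2a tumours, with -1.35 ± 0.87 over all tumours and 0.27 ± 0.63 without IgG2a replicate 7. The log2 fold changes of the lysyl hydroxylase Plod1, the transglutaminase Tgm2 and the lysyl oxidase Loxl4 were -0.32 ± 0.17, -0.27 ± 0.16 and -0.48 ± 0.36.

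Of 10 tested genes for collagen breakdown, 0 passed, with 7 higher and 3 lower estimates and 2 higher at an unadjusted p under 0.05, against 43.1% higher and 3.47% higher at that level over all genes. These were the collagenase Mmp13, at 1.30 ± 0.37, and the gelatinase Mmp9, at 0.96 ± 0.42. Mmp14, the membrane-bound collagenase, had 0.29 ± 0.16, and Fap, a serine protease of activated fibroblasts, had -1.86 ± 0.91, or -0.23 ± 0.66 without IgG2a replicate 7. Without that tumour 8 of the 10 breakdown genes were higher, 3 at that level, against 49.5% and 3.73% of all genes. With the muscle-rich and the transcript-poor tumour left out as well, 9 were higher, 5 at that level, against 53.3% and 6.9%. Mmp13 was then at 0.82 ± 0.33 and Mmp9 at 1.12 ± 0.50. Of 11 tested receptors 2 were higher and 9 lower with all tumours, where 43.1% of all genes were higher. At an unadjusted p under 0.05, 1 was lower, against 7.9%, the collagen-binding integrin Itga1 (-0.58 ± 0.25). Without IgG2a replicate 7, 4 were higher and 7 lower, where 49.5% of all genes were higher. At that level 1 was higher (Antxr1), against 3.73%, and 0 lower, against 3.41%, with Itga1 at -0.41 ± 0.23. With all tumours Antxr2 (-0.25 ± 0.17), Ddr2 (-0.19 ± 0.17) and Antxr1 (0.61 ± 0.56) had larger p than Itga1. Antxr1 was at 1.36 ± 0.44 without IgG2a replicate 7. Of 13 partners in fibre assembly 1 was higher and 12 lower, 3 of them at an unadjusted p under 0.05 (Tnxb at -3.33 ± 0.89, Dpt at -2.08 ± 0.74 and Ogn at -4.25 ± 1.57), with Fmod at -2.84 ± 1.41. Over all genes 43.1% were higher and 7.9% were lower at that level. Without IgG2a replicate 7, 8 of these 13 were higher, against 49.5% of all genes. At that level 0 were higher, against 3.73%, and 1 was lower, against 3.41%. The log2 fold changes were then -1.13 ± 0.36 for Tnxb, -0.54 ± 0.40 for Dpt, -1.78 ± 1.21 for Ogn and -1.81 ± 1.31 for Fmod. With the muscle-rich and the transcript-poor tumour left out as well, 10 of 13 were higher, Ogn and Fmod among them (1.20 ± 0.80 and 1.88 ± 1.00), against 53.3% of all genes. At that level 4 were higher, against 6.9%, and 1 was lower, against 8.88%.

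The 12 fibroblast markers summed to 383.5, 670.5 and 1580 TPM in anti-PD-1 tumours, against 543.6, 666 and 3965 TPM in IgG2a tumours. Of the 12 tested, 7 also stand in the lists above, Dcn, Dpt, Fn1, Lum, Postn and Sparc among the fibre partners and Fap among the breakdown genes. Of the 12, 2 were higher and 10 lower with all tumours, where 43.1% of all genes were higher. At an unadjusted p under 0.05, 1 was higher and 2 lower, against 3.47% and 7.9%. Without IgG2a replicate 7, 7 were higher, 1 at that level, against 49.5% and 3.73%. With the muscle-rich and the transcript-poor tumour left out as well, 9 were higher, 4 at that level, against 53.3% and 6.9%. The platelet-derived growth factor receptor genes of stromal cells had log2 fold changes of -0.21 ± 0.16 (Pdgfra) and -0.15 ± 0.16 (Pdgfrb) with all tumours. Lrrc15, a marker of a collagen-rich fibroblast state, had 7.92, 23.2 and 53.9 CPM in anti-PD-1 tumours, against 3.82, 9.02 and 18.1 CPM in IgG2a tumours, with 1.34 ± 0.42 (unadjusted p = 0.00548, adjusted p = 0.434). With all tumours the fat and muscle lists had lower estimates in all tested members (10 and 7), where 43.1% of all genes were higher. Without IgG2a replicate 7, 2 of 10 fat and 0 of 8 muscle genes were higher, against 49.5% of all genes. With the muscle-rich and the transcript-poor tumour left out as well, 8 of 10 and 8 of 8 were higher, against 53.3%. Adipoq and Plin1 had -4.98 ± 1.62 and -5.07 ± 1.63, and -0.53 ± 0.88 and -0.16 ± 0.79 without IgG2a replicate 7. The muscle actin Acta1 had 11820 CPM in IgG2a replicate 3 and a log2 fold change of -6.98 ± 2.44, or 2.89 ± 1.16 without the fat-rich, the muscle-rich and the transcript-poor tumour. The endothelial Pecam1 had -0.87 ± 0.47, or 0.08 ± 0.16 without IgG2a replicate 7. Of the pericyte genes 0 of 7 were higher, of the epithelial 2 of 8, of the cartilage and bone 2 of 3, of the Schwann cell 0 of 3 and of the leukocyte 0 of 5. These counts are with all tumours, where 43.1% of all genes were higher. Without IgG2a replicate 7 they were 6 of 7, 8 of 8, 2 of 4, 1 of 3 and 2 of 5, against 49.5% of all genes. No marker of these lists was at 0 in all tumours. The part of these lists in the collagen values was not tested.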

How the data were processed

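RNA from 16 mammary tumours (8 anti-PD-1, 8 IgG2a) was kept at a RIN above 5, enriched for mRNA with oligo-dT and sequenced from a kit that keeps no strand, per the labels' protocols, so overlapping genes on opposite strands cannot be told apart. The authors deposited estimated counts and TPM for 115088 transcripts per tumour, with transcript lengths, as the file headers name them. Per the submitters' processing notes, GRCm38 was the build, and edgeR and limma were among the tools. The quantifier is not given in the sources used here. The deposited counts held 25.4 to 38.6% values that were not whole.

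The 114200 transcripts found in GENCODE vM21 were summed to 47311 genes. The unmatched ones held 0.167 to 0.217% of the reads. Gene sums were rounded and fitted in R 4.3.3 with edgeR 4.0.16 (quasi-likelihood test, TMM factors 0.868 to 1.065), keeping 16154 genes by its expression filter (minimum count 10, minimum total 15). Adjusted p-values are Benjamini-Hochberg values over all genes, and each tumour is a separate animal. CPM use the TMM factors, and log2 CPM a prior count of 2. The biological coefficient of variation was 0.536. DESeq2 1.42.0, limma 3.58.1 (voom), other filters and scalings, log2 of TPM plus 1 or 0.1, a covariate for animal numbers and each tumour left out were alternatives. Shares of each gene's main transcript were compared with exact permutation tests in Python 3.11.15. The scripts were tested on simulated data.

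The family members, gene lists and tests were chosen with earlier results of these data known. Described in full were, in each class, up to 4 tested members with the highest mean TPM, the 6 with the smallest p with all tumours, the 6 with the smallest p without IgG2a replicate 7, and Col12a1. Of each other list up to 4 genes with the smallest p were named, with a few fixed ones. The other collagens named were chosen after their values were seen. Promoter sequences are RefSeq windows (35 of 44 members matched), read 5′ to 3′. Intervals are at 95%.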

Additional observations from a re-analysis of the deposited data

Results flagged for a closer look

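In 25 collagen genes, the gap of the highest or lowest tumour to its nearest neighbour, divided by the range of its group of 8, was compared with Dixon's critical value for 8 values. Of 50 groups, 11 passed it. Chance flags about 1 in 20 groups, or 2.5 here. That number is only a rough guide, because all genes were read in the same tumours. Some of the genes were also chosen by their p without IgG2a replicate 7. Anti-PD-1 replicate 6 was lowest for Col4a1 (0.627) and Col4a2 (0.740), and anti-PD-1 replicate 5 was highest for Col15a1 (0.552). The other 8 were IgG2a replicate 7, the tumour with the most adipocyte RNA. It was highest for Col3a1 (0.756), Col4a2 (0.529), Col4a4 (0.551), Col15a1 (0.927) and Col27a1 (0.603), and lowest for Col18a1 (0.574), Col7a1 (0.615) and Col16a1 (0.660).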

How the results depend on the processing

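No paired analysis was possible because replicate numbers follow the order of the samples and nothing in the labels pairs tumours. Under all 29 alternatives 0 collagen genes passed an adjusted p of 0.05. Over all genes only DESeq2 called any, 1 higher and 3 lower of 27933. Of 722 fold changes recomputed for 25 members, 677 kept their sign and 45 turned, in 12 members. The fit without IgG2a replicate 7 and anti-PD-1 replicate 5 and the use of the most-read coding transcripts were chosen after seeing the data. The causes were not tested. Log2 fold changes that turned by tool were, with DESeq2, 1.23 for Col1a2, 0.35 for Col15a1 and 0.24 for Col8a2. The edgeR fit without IgG2a replicate 7 gave 1.32, 0.36 and 0.18 for these genes. DESeq2 ran at its default settings, which can replace outlier counts in groups of 8, so its values may not weigh all tumours alike. With limma-voom Col1a2 was 0.79, and with quality weights Col1a2 was 1.38, Col3a1 0.082, Col15a1 0.13, Col14a1 0.91, Col9a3 -0.069 and Col8a2 0.66. With log2(TPM + 1) Col1a2 was 0.65 and Col6a4 0.00056, and with log2(TPM + 0.1) Col1a2 was 0.67. With the length offset Col16a1 was 0.074 and Col6a4 0.11. Without the 3 tumours (IgG2a 3 and 7, anti-PD-1 6) Col3a1 was 0.13, Col1a2 1.87, Col4a4 0.15, Col15a1 0.48, Col14a1 1.36, Col8a1 0.011 and Col8a2 1.20. Without IgG2a replicate 7 and anti-PD-1 replicate 5 Col1a2 was 0.84, Col4a4 0.0083, Col15a1 0.03 and Col6a4 0.05. Leaving out each tumour in turn gave -0.49 to 0.059 for Col3a1, -0.29 to 1.37 for Col1a1, -0.63 to 1.32 for Col1a2, -0.71 to 0.23 for Col4a4 and -1.81 to 0.36 for Col15a1. It gave -0.16 to 0.027 for Col16a1, -0.089 to 0.18 for Col9a3, -0.22 to 0.11 for Col6a4, -1.81 to 0.18 for Col8a2 and -0.20 to 1.80 for Col27a1. The highest of Col3a1, Col1a1, Col1a2, Col4a4, Col15a1, Col8a2 and Col27a1 came without IgG2a replicate 7. The basement membrane share of collagen was 14.7% by summed CPM and 13.6% by most-read coding transcripts, the basement membrane zone share 12.0% by those transcripts, and the FACIT share 3.02% by CPM and 1.24% by those transcripts.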
